A study of Mus musculus with 18 samples.

Results

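Among the genes measured on expression arrays of mouse embryonic fibroblasts, those named Zfp with a number, the generic symbol for a mouse zinc finger protein gene, were followed through the first hours of transforming growth factor β1 (TGF-β1) treatment. A gene was included where the annotation gave its probe set a single symbol made of Zfp and digits only, and where its brightest probe set averaged a log2 intensity of at least 6 over the 18 arrays, so that the genes were chosen by their symbol and their mean level. Of 305 such symbols on the array, 157 met the level and 148 did not, out of 18194 genes in all. Just inside the limit lay Zfp51 (6.00), Zfp712 (6.01) and Zfp93 (6.02), and just outside it Zfp575 (5.995), Zfp408 (5.993) and Zfp74 (5.97). All 157 genes also passed the filter on dim probe sets that left 13679 genes to test, and they are called the numbered Zfp genes below.

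The fibroblasts were primary cultures from embryos of 14 days, made from the body without head and liver. They came from 3 wild-type embryos and 3 embryos labelled as knock-outs of nuclear factor I-C (NFI-C), a transcription factor. Before treatment the cells were moved from serum-containing medium to one with an albumin product and insulin, transferrin and selenium, and they were then left untreated or given 12.5 ng/ml TGF-β1 for 1 h or 10 h, so that each of the 6 groups held 3 arrays and each embryo gave 1 array per condition. Both genotypes received the same medium and the same dose, and the labels give neither the allele and strain nor the extent of the deletion. Each embryo had 1 untreated array, which was set against both 1 h and 10 h. With no separate untreated array for each time, effects of TGF-β1 and of time in the new medium cannot be fully told apart.

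Zinc finger proteins of the Cys2-His2 kind form the largest family of DNA-binding factors in mammals. Many of those with plain numbers carry a KRAB domain, which recruits the corepressor Trim28 and the histone methyltransferase Setdb1 and is best known for silencing transposable elements. Many of these genes lie side by side in clusters that arose by repeated duplication. The numbered name is only a name, however, and the set also holds RNA-binding proteins such as tristetraprolin (Zfp36), a ubiquitin ligase of stalled ribosomes (Zfp598) and a spindle protein (Zfp207). TGF-β1 signals through SMAD proteins, which bind a short DNA core, and in fibroblasts it is known for driving matrix genes and the myofibroblast state.

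Pairs of arrays of one group correlated at 0.987 to 0.995 over all probe sets (Pearson's r), and the array medians lay between 4.74 and 4.81. All 10 fibroblast markers were measured, and their mean level was 11.1 to 11.9 on every array. The group means of this list were 11.8 untreated and 11.3 at 10 h in the wild type and 11.6 and 11.2 in the labelled knock-out. The means of the epithelial (4.32 to 4.95) and endothelial (3.97 to 4.57) lists were low. The mean of 8 macrophage markers was 8.04 to 10.6, and its group means stepped down with treatment time: in the wild type they were 9.58 untreated, 9.50 at 1 h and 9.24 at 10 h, and in the labelled knock-out 8.99, 8.89 and 8.86. The part of either list's cells in the changes below was not tested. In such bulk samples fewer cells of a type and less RNA per cell cannot be told apart. Nfic itself was not called lower in embryos labelled as knock-outs. The brightest of its probe sets measured 10.51, 10.36 and 10.49 in untreated wild-type arrays and 10.43, 9.89 and 10.72 in untreated knock-out arrays, a difference of -0.10 (SE 0.16, limma adjusted p = 1). On its dimmer probe sets the untreated arrays of the genotypes overlapped as well. The position of any of its probe sets relative to the deletion is not stated in the labels.

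At 1 h the changes were few. The set was taken up with the knowledge that several of its genes fell at this time, so that their number among the falls is a description. In the mean of both genotypes, which rests on 6 embryos, 6 numbered Zfp genes fell and 4 rose, where 0.322% of all tested genes fell and 0.965% rose (limma, Benjamini-Hochberg adjusted p under 0.05 over all 13679 genes). The 6 that fell were Zfp53, Zfp503, Zfp52, Zfp770, Zfp12 and Zfp703, and the 4 that rose were Zfp36, Zfp472, Zfp281 and Zfp568. These 6 made up 13.6% of the 44 genes that fell, while the numbered Zfp genes were 1.15% of the genes tested. With embryo as a block, which uses the fact that the 3 arrays of an embryo came from the same animal, 7 fell and 8 rose, among 65 and 169 of all 13679 genes.

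**Figure D1:**
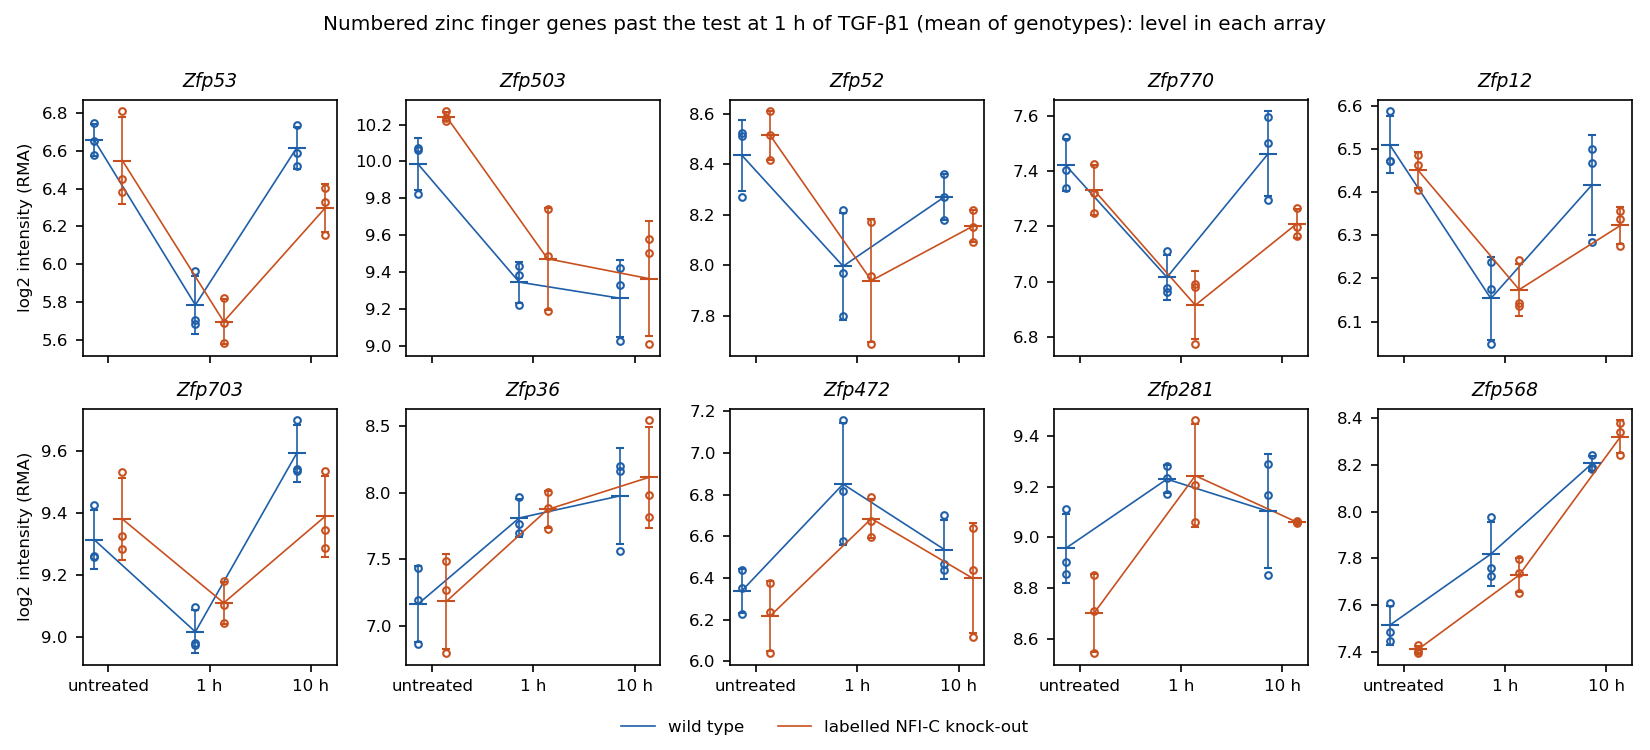
Log2 intensity of the 10 numbered Zfp genes that passed the test at 1 h, in each of the 18 arrays (circles), with the mean and SD of each group of 3 (bars), for wild-type and labelled knock-out fibroblasts untreated and after 1 h and 10 h of TGF-β1; the vertical axes differ between panels and do not start at 0. Zfp53 dropped from 6.38 to 6.81 untreated to 5.58 to 5.96 at 1 h and read 6.15 to 6.73 at 10 h. Zfp503 stayed low, and Zfp568 rose in steps.

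Zfp53 had the largest fall at 1 h. Its level was 6.65, 6.74 and 6.58 in the untreated wild-type arrays and 5.68, 5.96 and 5.71 after 1 h, and in the labelled knock-out 6.38, 6.81 and 6.45 untreated and 5.58, 5.82 and 5.69 after 1 h. All 6 treated arrays lay below all 6 untreated arrays. The change in the mean of genotypes was -0.86 (SE 0.08, limma adjusted p = 1.33e-05), or 1.82-fold, and it was the single numbered Zfp gene called in the wild type alone, where 0.0804% of all tested genes fell (adjusted p = 0.000976), and 1 of 2 called in the knock-out alone, where 0.0731% fell (adjusted p = 0.00148). No numbered Zfp gene rose in either genotype alone, against 0.504% of all tested genes in the wild type and 0.417% in the knock-out. At an unadjusted p under 0.05, 41 of the 157 genes differed from untreated in the wild type and 26 in the knock-out, against 6.87% and 3.74% of all tested genes. With the block, 2 fell and 2 rose in the wild type, among 18 and 95 of all genes, and 3 fell and 2 rose in the knock-out, among 17 and 84. At 10 h the levels of Zfp53 were 6.52, 6.59 and 6.73 in the wild type and 6.40, 6.33 and 6.15 in the knock-out. Its embryo differences from untreated were then -0.13, -0.16 and 0.16 in the wild type and 0.02, -0.48 and -0.30 in the knock-out. The 10 h change from untreated in the mean of genotypes, -0.15, did not pass the test (limma adjusted p = 0.16). The difference between 10 h and 1 h was 0.83 in the wild type (SE 0.12, limma adjusted p = 7.39e-05) and 0.60 in the knock-out (adjusted p = 0.00109); this comparison uses the same 1 h arrays as the fall. A second, dimmer probe set of Zfp53 also fell at 1 h, by -0.67 in a fit over all probe sets (limma adjusted p = 0.0288).

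Zfp503, a member of the NET family of transcriptional repressors known from limb and striatal development, fell at 1 h and was still low at 10 h. It read 10.08, 9.82 and 10.06 in the untreated wild type and 9.43, 9.22 and 9.38 at 1 h. In the labelled knock-out it read 10.24, 10.27 and 10.22 untreated and 9.49, 9.19 and 9.74 at 1 h, so that untreated and treated arrays did not overlap in either genotype. The change in the mean of genotypes was -0.71 (SE 0.11, limma adjusted p = 0.00205). In the knock-out alone it was -0.77 (adjusted p = 0.0357) and in the wild type alone -0.64 (adjusted p = 0.117). At 10 h Zfp503 had fallen by -0.73 in the wild type (adjusted p = 0.00211) and by -0.88 in the knock-out (adjusted p = 0.000437), and 10 h and 1 h were not told apart, with differences of -0.09 (SE 0.16) and -0.11 (SE 0.16). Its second probe set gave -0.998 at 1 h and -0.89 at 10 h in the mean of genotypes. The call in the knock-out alone was lost when any 1 of the 6 embryos was left out, with 1 gene, Zfp53, then called.

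Zfp703, the other gene of the NET family in the set, took a different course. Its fall at 1 h was the smallest of the 6 at -0.28 (SE 0.07, limma adjusted p = 0.0454), from 9.26, 9.43 and 9.26 to 8.98, 9.10 and 8.97 in the wild type and from 9.28, 9.33 and 9.53 to 9.10, 9.05 and 9.18 in the knock-out. No array at 1 h was as high as any untreated array of the same genotype. At 10 h it stood above its 1 h level by 0.57 in the wild type (adjusted p = 0.000214) and by 0.28 in the knock-out (adjusted p = 0.0301). Its 2 dimmer probe sets moved little at 1 h, with changes of -0.05 and -0.04, and the call was lost under 10 of 16 alternative settings.

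Zfp770 and Zfp12 fell by less, and neither was called against untreated at 10 h in either genotype. Zfp770 went from 7.40, 7.34 and 7.52 to 6.98, 7.11 and 6.96 in the wild type and from 7.25, 7.32 and 7.42 to 6.98, 6.78 and 6.99 in the labelled knock-out. Every 1 h array was below every untreated array. The change was -0.41 (SE 0.07, limma adjusted p = 0.00281), and at 10 h the gene had risen from its 1 h level by 0.45 in the wild type (adjusted p = 0.00185) and by 0.29 in the knock-out (adjusted p = 0.0252). Zfp12 read 6.59, 6.47 and 6.47 untreated and 6.18, 6.05 and 6.24 at 1 h in the wild type, and 6.46, 6.40 and 6.48 against 6.14, 6.14 and 6.24 in the knock-out. Again no treated array reached an untreated one. Zfp12 fell by -0.32 (SE 0.06, limma adjusted p = 0.00567). Its level at 10 h was above that at 1 h by 0.26 in the wild type (adjusted p = 0.0183) and by 0.15 in the knock-out (adjusted p = 0.171).

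Zfp52 lies next to Zfp53 on chromosome 17, and 4 of the numbered Zfp genes follow each other there without another annotated gene in between: Zfp51, Zfp53, Zfp52 and Zfp948. This was the longest of 11 such runs, which together held 25 of the 157 genes. Zfp52 read 8.27, 8.52 and 8.51 untreated and 7.80, 8.22 and 7.97 at 1 h in the wild type, and 8.52, 8.61 and 8.42 against 7.69, 8.17 and 7.96 in the labelled knock-out. The groups did not overlap in either genotype. The change was -0.51 (SE 0.09, limma adjusted p = 0.00502), and its second probe set gave -0.69 (adjusted p = 0.00764 over all probe sets). At 10 h Zfp52 was still lower than untreated in the mean of genotypes, at -0.26 (adjusted p = 0.0227), a call lost in 5 of 16 alternatives.

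The outer genes of the run were not called. Zfp51 was lower at 1 h in 5 of 6 embryos and higher in the other, with embryo differences of -0.42, 0.23 and -0.63 in the wild type and -0.87, -0.48 and -0.40 in the labelled knock-out. Its mean change of -0.43 (SE 0.15) did not pass the test (limma adjusted p = 0.339). Zfp948 was lower in 2 embryos and higher in 4, with a mean change of 0.002 (SE 0.10, adjusted p = 1). The genes of the run are related, and whether their probes also take up each other's RNA was not tested.

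**Figure D2:**
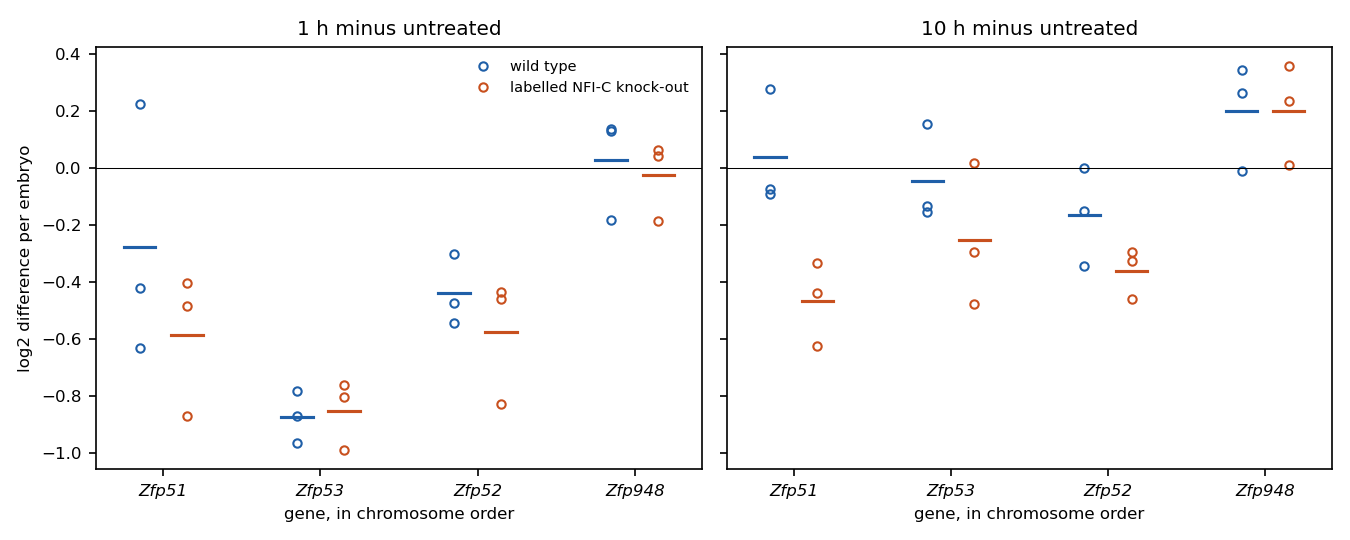
Log2 difference of each treated array from the untreated array of the same embryo (circles) at 1 h (left) and 10 h (right) for the 4 adjacent genes of chromosome 17, with the mean of each genotype (bars). At 1 h Zfp53 and Zfp52 were below 0 in all 6 embryos, Zfp51 in 5 and Zfp948 in 2.

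The sequences before the starts of the genes that fell at 1 h are given because these genes moved together, with that of Zfp948 as a neighbour that did not pass the test. They are the 250 bases upstream of the annotated start from RefSeq (GRCm38.p6), 5′ to 3′ on the strand of the gene, in lower case. Capitals mark the SMAD core CAGAC (or GTCTG on the other strand) and the short NFI motif TTGGC (or GCCAA). A promoter entry was matched for 126 of the 157 genes, and none is listed for Zfp703 or Zfp51. Zfp53 and Zfp52 are at chr17:21488738-21488987 and chr17:21535289-21535538 and Zfp948 at chr17:21566728-21566977, all on the plus strand. Zfp503 is at chr14:21989602-21989851 and Zfp770 at chr2:114201433-114201682, both on the minus strand, and Zfp12 is at chr5:143234913-143235162 on the plus strand.
Zfp53: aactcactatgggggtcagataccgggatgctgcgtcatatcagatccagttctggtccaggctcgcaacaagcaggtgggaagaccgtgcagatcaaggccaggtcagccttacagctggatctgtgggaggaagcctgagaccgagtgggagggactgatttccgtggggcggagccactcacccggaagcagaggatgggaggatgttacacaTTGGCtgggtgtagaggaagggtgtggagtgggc
Zfp52: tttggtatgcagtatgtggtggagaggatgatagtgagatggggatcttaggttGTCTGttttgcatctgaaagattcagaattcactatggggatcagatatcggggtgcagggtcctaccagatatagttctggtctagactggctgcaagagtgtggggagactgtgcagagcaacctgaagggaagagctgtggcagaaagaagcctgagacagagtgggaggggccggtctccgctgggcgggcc
Zfp948: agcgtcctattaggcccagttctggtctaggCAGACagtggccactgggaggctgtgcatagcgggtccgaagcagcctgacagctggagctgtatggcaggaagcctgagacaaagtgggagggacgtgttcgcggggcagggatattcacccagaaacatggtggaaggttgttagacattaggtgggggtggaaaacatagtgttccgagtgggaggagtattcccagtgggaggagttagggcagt
Zfp503: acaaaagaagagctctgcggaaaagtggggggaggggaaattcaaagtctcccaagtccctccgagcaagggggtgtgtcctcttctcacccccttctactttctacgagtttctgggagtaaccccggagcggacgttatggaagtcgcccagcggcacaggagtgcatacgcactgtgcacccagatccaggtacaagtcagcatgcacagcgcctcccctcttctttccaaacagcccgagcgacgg
Zfp770: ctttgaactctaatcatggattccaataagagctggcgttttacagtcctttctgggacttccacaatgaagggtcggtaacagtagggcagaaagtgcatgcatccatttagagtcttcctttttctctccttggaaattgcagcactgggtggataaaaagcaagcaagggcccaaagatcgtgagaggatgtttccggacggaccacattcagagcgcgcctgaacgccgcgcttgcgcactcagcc
Zfp12: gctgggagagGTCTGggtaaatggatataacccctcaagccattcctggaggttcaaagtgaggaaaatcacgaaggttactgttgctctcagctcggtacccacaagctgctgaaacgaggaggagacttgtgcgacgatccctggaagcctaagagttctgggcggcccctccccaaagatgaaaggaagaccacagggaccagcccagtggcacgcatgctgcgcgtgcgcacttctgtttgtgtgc

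The SMAD core was present once in the windows of Zfp52, Zfp948 and Zfp12 and these letters were not found in those of Zfp53, Zfp503 and Zfp770. It was in 42.2% of all 32851 promoter windows of this length and in 36.2% of the 160 windows of the numbered Zfp genes. The short NFI motif was found in the Zfp53 window alone among the 6, against 41.5% of all windows and 45.6% of those of the numbered Zfp genes. In a local alignment of all 15 pairs, the Zfp53 window matched that of Zfp948 over 202 positions at 72.8% identity and that of Zfp52 over 180 positions at 73.9%. Both alignments were thus of similar length and identity. Any part of these windows in the changes at 1 h was not tested. Over the whole entries, which run 50 bases past the start, the median GC content was 58.8% in the numbered Zfp genes, 61.3% in genes at a level of 6 or above and 52.7% in all promoters. The GC box GGGCGG was in 59.4% of the entries of numbered Zfp genes and 35.7% of all entries, and the ETS motif CCGGAAG in 20% and 8.86%, both counted on either strand. No motif was counted apart in genes at a level of 6 or above, so these shares could not be compared with those of genes of like level.

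The rises at 1 h were led by Zfp36, which encodes tristetraprolin, an RNA-binding protein that hastens the decay of AU-rich messages. Zfp36 read 7.20, 7.44 and 6.87 untreated and 7.97, 7.76 and 7.70 at 1 h in the wild type, and 7.49, 7.27 and 6.80 against 8.002, 7.89 and 7.73 in the labelled knock-out. The groups did not overlap, although the untreated arrays varied widely among embryos. The rise was 0.67 (SE 0.15, limma adjusted p = 0.0453), and at 10 h it was 0.81 in the wild type (adjusted p = 0.00938) and 0.93 in the knock-out (adjusted p = 0.00363). Zfp472 read 6.35, 6.44 and 6.23 untreated and 7.16, 6.82 and 6.58 at 1 h in the wild type, and 6.38, 6.04 and 6.24 against 6.67, 6.79 and 6.60 in the knock-out, without overlap. It rose by 0.49 at 1 h (SE 0.11, adjusted p = 0.0284), and its 10 h change of 0.19 did not pass the test (adjusted p = 0.153).

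Zfp281, a Krüppel-type factor known for its part in pluripotency and in the epithelial to mesenchymal transition, rose by 0.41 at 1 h (SE 0.09, limma adjusted p = 0.0255). It read 8.90, 9.11 and 8.86 against 9.28, 9.24 and 9.17 in the wild type and 8.85, 8.71 and 8.54 against 9.06, 9.46 and 9.21 in the knock-out, without overlap. Zfp568, a KRAB protein known for repressing a placental Igf2 transcript, rose in 2 steps in the mean of genotypes, by 0.31 at 1 h (SE 0.06, adjusted p = 0.00761) and by 0.80 at 10 h (SE 0.06, adjusted p = 2.03e-08). It read 7.49, 7.61 and 7.44 untreated, 7.98, 7.72 and 7.76 at 1 h and 8.18, 8.19 and 8.24 at 10 h in the wild type, and 7.43, 7.40 and 7.40, then 7.65, 7.80 and 7.74, then 8.24, 8.38 and 8.34 in the knock-out. No condition overlapped another. The count of rises changed with the embryos included: without wild-type embryo 1, wild-type embryo 3, knock-out embryo 2 or knock-out embryo 3 the count of rises was 0, without wild-type embryo 2 it was 2 and without knock-out embryo 1 it was 4. The count of falls was 4 or 5 in each case. Calls over all tested genes were not counted in these fits.

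Beyond the called genes, the numbered Zfp genes leaned downward at 1 h. In the mean of genotypes 116 of the 157 had a negative change (73.9%, against 53.9% of all tested genes), and their median change was -0.09 against -0.01. At an unadjusted p under 0.05 there were 55, of which 45 were lower, while 7.47% of all tested genes passed that limit and 3.81% passed it as lower. 32 genes were lower in all 6 embryos and 11 higher in all 6, where 5.59% and 5.20% of all tested genes were. In each embryo taken alone the median change of the numbered Zfp genes was below that of all tested genes, from -0.03 in knock-out embryo 2 to -0.14 in knock-out embryo 1, against 0.01 and -0.03 for all tested genes. By level, between a level of 6 and 7 the share with a negative change was 84.7% of 72 numbered Zfp genes and 58.0% of all genes of that level, between 7 and 8 63.8% of 47 and 59.2%, and from 8 upward 65.8% of 38 and 54.2%.

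**Figure D3:**
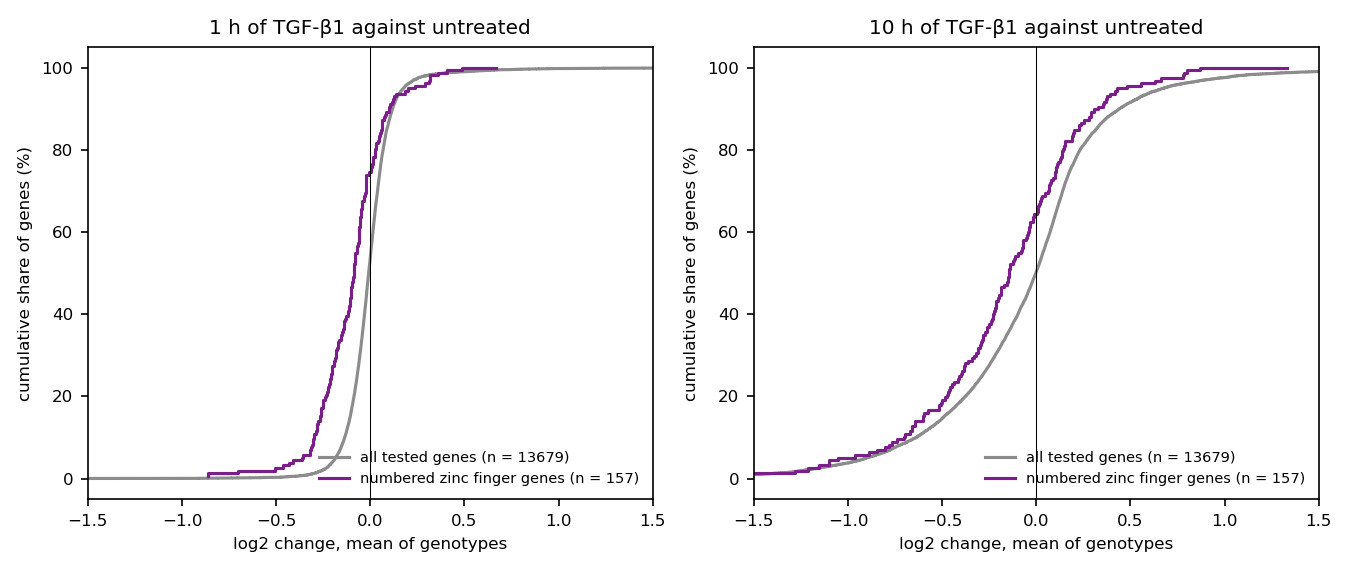
Cumulative share of genes (vertical, %) by their log2 change in the mean of genotypes (horizontal, shown from -1.5 to 1.5) at 1 h (left) and 10 h (right), for the 157 numbered Zfp genes and all 13679 tested genes. At a change of 0 the curve of the numbered Zfp genes stands at 73.9% at 1 h and 63.7% at 10 h, and that of all tested genes at 53.9% and 50.4%.

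By 10 h 86 of the 157 numbered Zfp genes had changed. In the mean of genotypes 62 fell (39.5%) and 24 rose (15.3%; limma adjusted p under 0.05), where 27.8% of all tested genes fell and 21.1% rose. Among the 9364 genes at a level of 6 or above, the limit used for the set, 33.0% fell and 24.4% rose. Of the numbered Zfp genes 54.8% were called, against 57.4% of genes at that level and 48.9% of all tested genes. In the wild type 41 fell and 17 rose, against 18.8% and 14.9% of all tested genes, and in the labelled knock-out 53 fell and 21 rose, against 20.7% and 13.9%. Among genes at a level of 6 or above, 22.7% fell and 17.5% rose in the wild type, and 24.9% and 17.7% in the knock-out. The median change was -0.14 in the mean of genotypes, against -0.0028 for all tested genes and -0.05 for genes at a level of 6 or above. From a level of 8 upward the median of 38 numbered Zfp genes was 0.01, and 47.4% were negative. For all genes of that level these were -0.04 and 54.2%. Between 6 and 7 the negative share was 72.2% of 72, against 56.6%, and between 7 and 8 it was 63.8% of 47, against 57.6%. The counts depend on the scaling of the arrays, for these genes and for all others: centred on the median of the tested genes, which moves the median of all genes at 10 h by 0.14, 45 fell and 46 rose in the mean of genotypes, where 19.2% of all tested genes fell and 39% rose. In the wild type 26 then fell and 33 rose (12.8% and 28.2% of all tested genes) and in the knock-out 35 fell and 28 rose (13.9% and 22.8%). The median of the numbered Zfp genes was then -0.0027 and that of all tested genes 0.14.

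The largest fall belonged to Zfp521, a protein of many fingers that binds and restrains early B cell factors and opposes the fat cell fate. It read 9.13, 9.10 and 9.86 in the untreated wild type, 9.23, 9.11 and 9.59 at 1 h and 6.95, 7.52 and 7.16 at 10 h. In the labelled knock-out it read 9.16, 9.04 and 9.22, then 9.12, 9.09 and 9.05, then 6.61, 7.08 and 7.10. The 10 h arrays were far below all others, and 1 h and untreated arrays overlapped. The change at 10 h was -2.18 (SE 0.14, limma adjusted p = 5.6e-09), or 4.54-fold, and the second probe set gave -1.40.

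Zfp608, a nuclear factor known from thymocytes, read 7.31, 7.005 and 7.16 untreated and 5.64, 5.75 and 5.96 at 10 h in the wild type, and 6.92, 6.70 and 7.10 against 5.72, 5.71 and 5.70 in the labelled knock-out. The untreated and 10 h arrays were well apart. Its change at 10 h was -1.28 (SE 0.09, limma adjusted p = 2.43e-08), and a further probe set gave -1.60.

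Zfp810 read 7.77, 7.64 and 7.89 untreated and 6.75, 6.44 and 6.62 at 10 h in the wild type, and 7.67, 7.49 and 7.79 against 6.32, 6.40 and 6.42 in the labelled knock-out, a fall of -1.22 (SE 0.07, limma adjusted p = 3.36e-09). Zfp28 read 6.59, 6.91 and 6.77 against 5.62, 5.25 and 5.24 in the wild type, and 6.58, 6.54 and 6.54 against 5.44, 5.78 and 5.67 in the knock-out, a fall of -1.16 (SE 0.09, adjusted p = 7.91e-08). Neither gene had a 10 h array near an untreated one. Zfp946 fell by -1.10 (SE 0.07, adjusted p = 7.18e-09), from 6.69 to 6.96 over the untreated arrays to 5.32 to 5.98. Zfp365, known for a part in genome stability, fell by -1.10 (SE 0.14) with a wide spread at 10 h, 4.91 to 5.78 against 6.20 to 6.75. Zfp760 (-1.05), Zfp932 (-0.97), Zfp637 (-0.89), Zfp292 (-0.85), Zfp503 (-0.80) and Zfp799 (-0.78) completed the 12 largest falls called in both genotypes.

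**Figure D4:**
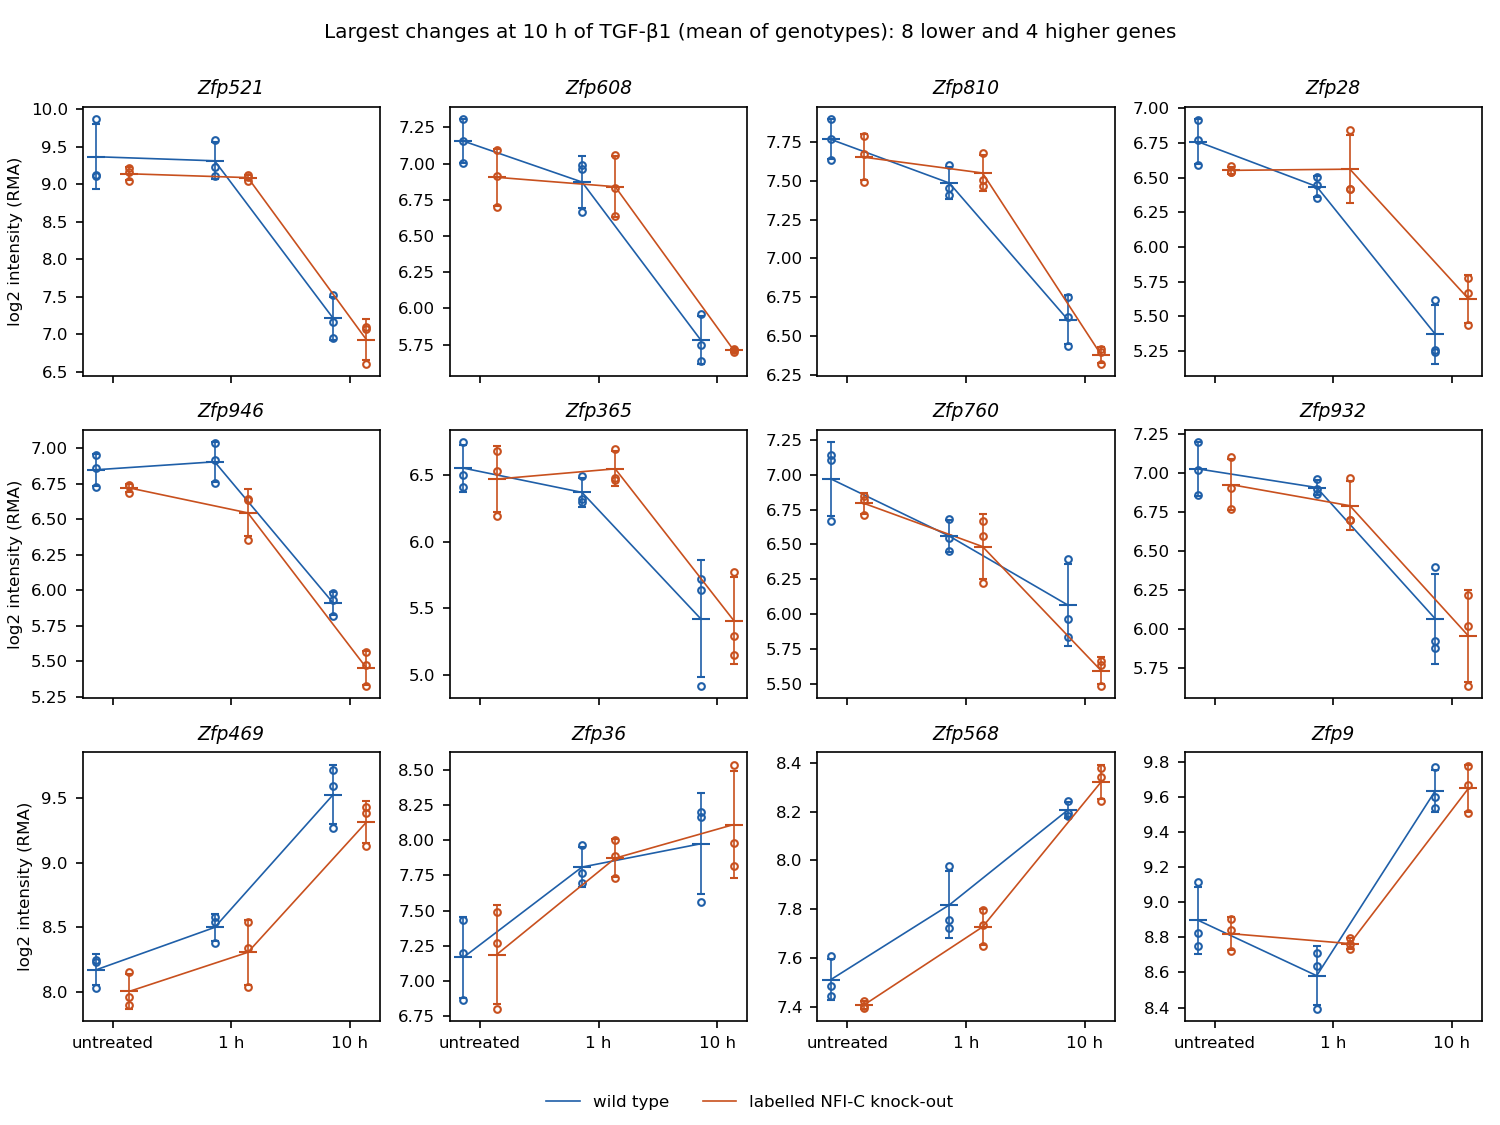
Log2 intensity in each of the 18 arrays (circles), with group means and SD (bars, n = 3), of the 8 numbered Zfp genes with the largest falls at 10 h in the mean of genotypes (upper and middle panels) and the 4 with the largest rises (bottom panels); the vertical axes differ and do not start at 0. The 10 h arrays lie below the untreated arrays in the upper 8 panels and above them in the 4 bottom ones, while the 1 h arrays of Zfp521 lie among the untreated ones.

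Among the rises at 10 h Zfp469 was first. Its human counterpart is linked to brittle cornea syndrome, a disorder of corneal collagen. Zfp469 read 8.23, 8.25 and 8.03 untreated, 8.58, 8.55 and 8.38 at 1 h and 9.72, 9.59 and 9.27 at 10 h in the wild type, and in the labelled knock-out 7.96, 7.90 and 8.16, then 8.34, 8.04 and 8.54, then 9.38, 9.13 and 9.43. The 10 h change was 1.33 (SE 0.10, limma adjusted p = 2.71e-08), or 2.52-fold. The change at 1 h, 0.32 in the mean of genotypes, did not pass the test (adjusted p = 0.224), though it did with embryo as a block.

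The next rises were those of Zfp36 (0.87), Zfp568 (0.80), Zfp9 (0.78) and Zfp598 (0.78, SE 0.06, limma adjusted p = 1.94e-08). Zfp9 read 8.75, 9.11 and 8.83 untreated and 9.60, 9.54 and 9.77 at 10 h in the wild type, and 8.84, 8.90 and 8.72 against 9.51, 9.78 and 9.67 in the knock-out. All 10 h arrays were above all others. Zfp330, a nucleolar protein, rose by 0.66, Zfp593, a factor of ribosome assembly, by 0.56, Zfp335, part of a histone methylation complex, by 0.43, and Zfp830, a splicing factor, by 0.37. Zfp142 (0.48) and Zfp236 (0.39) were also among the 12. Zfp207, which binds the checkpoint protein Bub3 at the spindle, rose by 0.63 on its brightest probe set, but its 4 other tested probe sets gave 0.03, -0.33 (adjusted p = 0.0158 over all probe sets), -0.22 and -0.10, so that its probe sets do not share a direction. With the probe sets averaged, its change in the wild type was -0.02.

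For most other genes the probe sets gave the same sign more often than not. Of 73 numbered Zfp genes with a second tested probe set, 60 had the same sign in both at 10 h, and of the 39 of these that were called, 37 did. At 1 h 53 of the 73 and all 5 of the called ones did. Chromosome 7 held 33 of the genes, chromosome 17 held 20 and chromosome 8 held 15. Of the 20 on chromosome 17, 13 fell at 10 h in the mean of genotypes and 1, Zfp598, rose. Among all 157 genes 39.5% fell and 15.3% rose, and among all tested genes 27.8% and 21.1%. The 13 included Zfp946, Zfp760, Zfp799, Zfp945, Zfp994 and Zfp160, with changes of -1.10 to -0.57. Of the 33 on chromosome 7, 9 fell and 3 rose, and of the 15 on chromosome 8, 6 fell and 4 rose.

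The 10 h level was also set against the 1 h level. In the wild type 30 numbered Zfp genes were lower and 32 higher at 10 h than at 1 h (18% and 15.3% of all tested genes), and in the labelled knock-out 41 were lower and 22 higher (19.7% and 13.7%). Of the 6 genes that had fallen at 1 h, Zfp53, Zfp770 and Zfp703 were higher at 10 h than at 1 h in both genotypes and Zfp12 in the wild type, while for Zfp503 and Zfp52 no difference passed the test.

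The responses of the genotypes were also set side by side; they share no array. At 10 h 55 of the numbered Zfp genes were called in both genotypes in the same direction, 39 lower and 16 higher, where 16.0% and 11% of all tested genes were. Of genes at a level of 6 or above, 19.7% and 14.4% were. The 55 were 94.8% of the 58 called in the wild type and 74.3% of the 74 called in the knock-out. Over all tested genes these shares were 80.0% and 77.8%. None was called in opposite directions. 54 genes were lower in all 6 embryos at 10 h and 21 higher in all 6, against 24.6% and 19.3% of all tested genes, and in none did all wild-type embryos go one way and all knock-out embryos the other (0.629% of all tested genes). Of genes at a level of 6 or above, 29.5% were lower and 22.6% higher in all 6 embryos. At 1 h Zfp53 was the 1 gene called in both genotypes, as lower, where 0.0512% of all tested genes were. Across the 157 genes, which are not independent replicates, the changes in the genotypes correlated at 0.931 at 10 h and 0.668 at 1 h (Pearson's r; 0.936 and 0.586 over all tested genes).

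**Figure D5:**
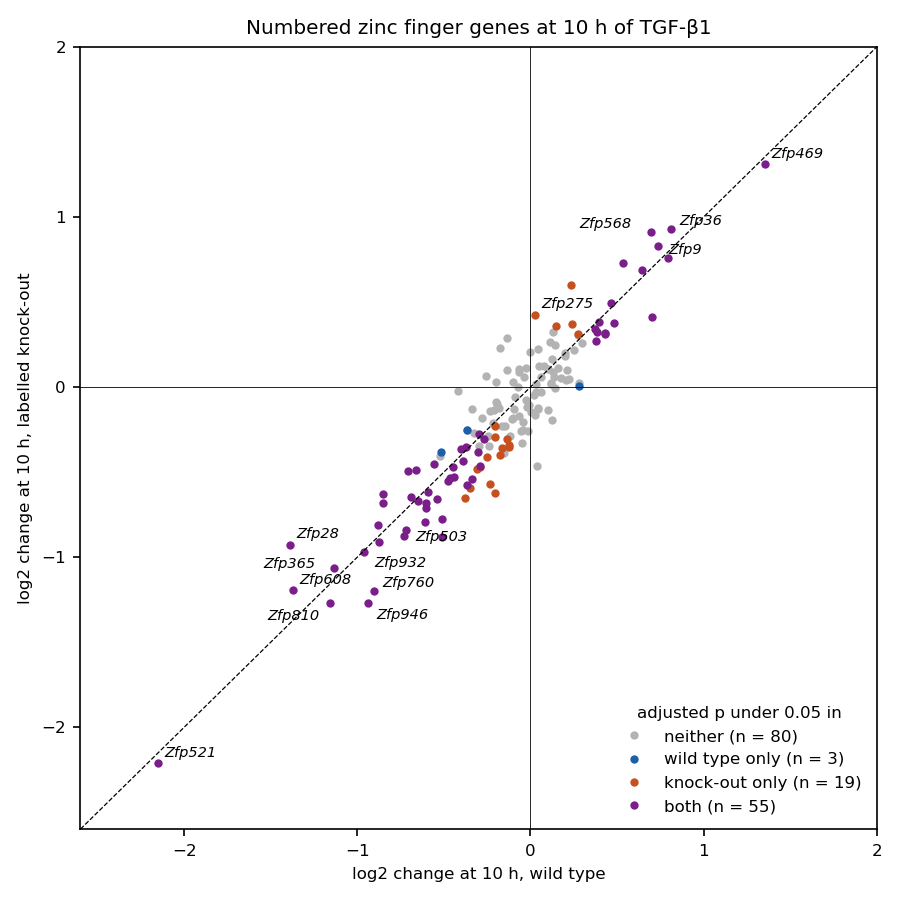
Log2 change at 10 h of the 157 numbered Zfp genes in the wild type (horizontal) and in the labelled knock-out (vertical), coloured by whether the adjusted p was under 0.05 in both genotypes (55), in 1 of them or in neither; the dashed line marks equal change. The genes lie along the line from Zfp521 at the lower left to Zfp469 at the upper right.

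No difference between the genotypes passed the test. Of the 157 genes 0 had a 1 h or a 10 h response that differed between genotypes (limma interaction, adjusted p under 0.05; 0.00% of all tested genes), and 7 and 4 had an unadjusted p under 0.05, where 1.70% and 2.23% of all tested genes had. For Zfp53 the difference between the 1 h responses was 0.02 with a 95% interval of -0.34 to 0.38, and for Zfp503 -0.13 (-0.60 to 0.34). For Zfp521 the difference between the 10 h responses was -0.06 (-0.65 to 0.54). The intervals of Zfp503 and Zfp521 allow differences larger than many of the changes given above.

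The smallest unadjusted p for the 1 h response belonged to Zfp292, with levels of 8.004, 7.94 and 7.92 untreated and 7.72, 7.36 and 7.69 at 1 h in the wild type, but 7.84, 7.76 and 7.68 and then 7.94, 7.999 and 8.14 in the labelled knock-out. All wild-type embryos went down and all knock-out embryos up, and the difference of 0.63 (SE 0.21) had an adjusted p of 1 (limma). Zfp593 went up in all wild-type and down in all knock-out embryos. These were 2 of the 157 genes with the genotypes opposed in either direction, against 3.09% of all tested genes. Zfp217 followed, with 6.76, 6.60 and 6.59 going to 6.21, 6.05 and 6.04 in the wild type and 6.56, 6.65 and 6.36 to 6.47, 6.52 and 6.50 in the knock-out, a difference of 0.52 (SE 0.18). For Zfp516 it was 0.33 (SE 0.14). At 10 h the smallest p were those of Zfp275 (0.40, SE 0.13), Zfp28 (0.46, SE 0.19) and Zfp946 (-0.33, SE 0.14), each with an adjusted p of 0.999.

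In the direct comparison of genotypes 0 numbered Zfp genes were called untreated, at 1 h, at 10 h or in the embryo means, again with 0.00% of all tested genes. At an unadjusted p under 0.05 there were 4, 14, 12 and 6, against 3.36%, 6.18%, 5.27% and 4.82% of all tested genes. The lowest adjusted p, 0.528 (limma), was that of Zfp946 at 10 h, with 5.82, 5.93 and 5.98 in the wild type and 5.32, 5.47 and 5.56 in the knock-out. Those values did not overlap, and the difference was -0.46 (SE 0.10). Zfp516, a factor of brown fat development, read 7.86, 8.11 and 7.84 in the untreated wild type and 7.70, 7.58 and 7.57 in the knock-out, with differences of -0.32 untreated and -0.39 at 10 h and adjusted p of 1 and 0.612. The Zfp516 values come from a probe set whose name ends in _x_at. Its wild-type change at 10 h reversed in sign when probe sets ending in _x_at, _s_at or _a_at were left out, as given below. With 3 embryos against 3, an exact permutation test of 1 gene could not go below 0.1.

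Several numbered Zfp genes with well-known roles did not pass the test at 10 h in the mean of genotypes: Zfp148 (-0.14), Zfp346 (0.02), Zfp384 (0.03), Zfp462 (-0.02), Zfp664 (0.09), Zfp507 (0.11), Zfp105 (-0.12) and Zfp809 (-0.20), the last a KRAB protein that silences retroviral DNA. Zfp90 fell by -0.77 (SE 0.07, limma adjusted p = 2.34e-07), from 7.33 to 7.58 to 6.44 to 6.86, and its 1 h change of -0.28 missed the threshold (adjusted p = 0.064). Zfp638 fell by -0.50, Zfp644 by -0.38, Zfp219 by -0.29, Zfp326 by -0.29 and Zfp318 by -0.23. Zfp106, an RNA-binding protein, rose by 0.31.

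A list of 25 corepressor and chromatin genes, chosen for their function, was followed as well. It held Trim28 and Setdb1, and also DNA methyltransferases, Trim24 and Trim33. The list is thus wider than the partners of KRAB proteins named above. At 1 h none of the 25 genes changed in either genotype or in the mean, with a median change of -0.0024 in the mean. At 10 h 12 fell and 3 rose in the mean of genotypes, with a median of -0.09, where 27.8% of all tested genes fell and 21.1% rose. Trim28 fell by -0.27 (SE 0.08, limma adjusted p = 0.0114), and larger falls were those of Trim24 (-1.04), the maintenance methyltransferase Dnmt1 (-0.99) and Atf7ip (-0.69), while Gatad2a rose by 0.41.

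Other zinc finger families were counted in the same fit, each limited to genes at a level of 6 or above. In the mean of genotypes 0.965% of all tested genes rose and 0.322% fell at 1 h, and 21.1% and 27.8% at 10 h. Of genes at a level of 6 or above, 1.28% rose and 0.310% fell at 1 h, and 24.4% and 33.0% at 10 h. At 1 h 2 of 23 BTB zinc finger genes rose, Zbtb1 (0.68, SE 0.08, limma adjusted p = 7.78e-05) and Zbtb2 (0.55, SE 0.07, adjusted p = 0.000128), both in each genotype, and none fell. At 10 h 7 of the 23 rose and 4 fell in the mean of genotypes. Of the 10 Zkscan and Zscan genes none was called at 1 h, with a median of -0.11, and 5 fell and 1 rose at 10 h. Of 12 CCCH genes none was called at 1 h, and at 10 h 4 fell and 2 rose. These 4 included Zfp36l1 (-1.20, SE 0.10) and Zfp36l2 (-0.70, SE 0.12), relatives of Zfp36, which rose in the same arrays. Of 3 lettered genes, Zfpm1, a cofactor of GATA proteins, rose by 1.25 at 10 h (SE 0.11, adjusted p = 1.62e-07), Zfpl1 rose by 0.44 and Zfpm2 fell by -0.34.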

How the data were processed

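The 18 arrays hold biotin-labelled RNA of 6 embryos in 3 conditions. The deposited values are log2 intensities per probe set, which the submitters' processing notes credit to RMA, with no version stated. Such normalization equalises the arrays, so that a shift common to most genes would not be seen, and the number of arrays limits the precision. Of 45101 probe sets, 34958 had a single gene symbol, 932 several and 9211 none. Each gene was represented by its brightest probe set (mean of all arrays), and genes were tested where this was above the array's 40th percentile on at least 3 arrays.

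One linear model over the 6 groups was fitted with limma 3.58.1 in R 4.3.3 (12 residual degrees of freedom), with p-values adjusted by Benjamini-Hochberg over all tested genes and called under 0.05. Differences and SE are on the log2 scale. The 1 h and 10 h comparisons share the untreated arrays. All limma tests are two-sided. The members and gene lists were chosen with earlier results of these data known. Named genes were those called at 1 h, the 12 largest rises and falls called at 10 h in both genotypes, the 3 smallest p of each genotype comparison, genes with well-known roles, and genes at the level limit. Within a genotype, arrays of one number came from one embryo, per the labels. Deviations from the group means of untreated and 1 h arrays of an embryo correlated at 0.592 to 0.763, those of untreated and 10 h arrays at -0.204 to 0.487. The fit was checked on simulated data. Alternatives covered the block, filter, probe set choice, centring, variance model and each embryo left out. Promoters were read from RefSeq entries and aligned locally (match 2, mismatch -3, gap -5).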

Additional observations from a re-analysis of the deposited data

How the results depend on the processing

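With embryo as a replicate block the counts at 1 h were 2 higher and 2 lower in the wild type, 2 higher in the knock-out and 8 higher in the mean of genotypes. With embryo as a random block they were 1 higher and 5 lower in the wild type and 1 higher and 4 lower in the knock-out. The lower count of the wild type at 1 h was 2 among genes at a level of 6 or above only and 5 with the probe sets of a gene averaged. Fitting only the arrays compared gave 0 lower in the knock-out at 1 h and 20 higher in the wild type at 10 h against 1 h. With the random block, the level limit, averaged probe sets or only the arrays compared, calls over all tested genes were not counted. The counts under those settings therefore have no share to be set against. Centring on the median of the tested genes gave 33 higher and 26 lower in the wild type at 10 h (28.2% and 12.8% of all tested genes). At 10 h it also gave 35 lower in the knock-out (13.9% of all tested genes) and 46 higher in the mean (39%). In the knock-out 35 were then higher and 26 lower at 10 h than at 1 h (23.4% and 13.1% of all tested genes). The cause was not tested.

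Leaving out 1 embryo gave 0 to 4 higher and 4 to 5 lower in the mean at 1 h, 1 lower in either genotype at 1 h, 13 to 17 higher and 27 to 41 lower in the wild type at 10 h (27 without wild-type embryo 3), 11 to 22 higher and 32 to 53 lower in the knock-out at 10 h (32 without knock-out embryo 1, 35 and 11 without knock-out embryo 3, 13 higher without knock-out embryo 2), and 22 to 24 higher and 53 to 62 lower in the mean. For 10 h against 1 h it gave 21 to 30 higher and 20 to 32 lower in the wild type and 14 to 24 higher and 28 to 41 lower in the knock-out. Calls over all tested genes were not counted with an embryo left out. A loss of calls in these genes thus cannot be told apart from a loss in all genes. Genotype comparisons gave 0 throughout, also with the replicate number as their block, a number that pairs no animals between genotypes.

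Of 2945 values of named genes under an alternative, 2717 kept direction and call, 223 lost the call and 5 reversed. With all probe sets averaged Zfp207 gave -0.018 in the wild type at 10 h and -0.038 in the knock-out at 10 h against 1 h. Without probe sets whose names end in _x_at, _s_at or _a_at these were -0.031 and -0.026, and Zfp516 in the wild type at 10 h was 0.014. The calls of Zfp53 in the mean at 1 h were kept in all 16 alternatives.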

Other observations

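The numbered genes below the level of 6 were not part of the set described above, and 114 of those 148 were tested. They are dim, on arrays whose medians were 4.74 to 4.81. At 1 h 6 of the 114 fell in the mean of genotypes (5.26%) and 0 rose (limma), against 0.322% and 0.965% of all tested genes. The 6 were Zfp40 (-0.97), Zfp61 (-0.65), Zfp30 (-0.48), Zfp128 (-0.39), Zfp184 (-0.34) and Zfp189 (-0.33). The median change of the 114 was -0.19, and 94 were negative (82.5%, against 53.9% of all tested genes). At 10 h 52 fell (45.6%) and 3 rose (2.63%), against 27.8% and 21.1% of all tested genes, and their median change was -0.21. The falls included Zfp229 (-1.32), Zfp101 (-1.28), Zfp467 (-1.23), Zfp763 (-1.16) and Zfp820 (-1.10), and Zfp697 rose by 0.88. These examples were chosen after their values were seen.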
